A study of Arabidopsis thaliana with 4 samples.

Results

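Expression of 10 phosphate status genes was described in first leaves of 14-day-old Arabidopsis thaliana, in the inbred accession Ak-1 and in the hybrid Col-0xAk-1. The genes were taken by locus identifier, 10 of the 34133 loci with a deposited value: SPX1 (AT5G20150), SPX2 (AT2G26660), SPX3 (AT2G45130), SPX4 (AT5G15330), PHR1 (AT4G28610), PHO1 (AT3G23430), PHO1;H1 (AT1G68740), PHO2 (AT2G33770), SQD1 (AT4G33030) and SQD2 (AT5G01220). The study asks about biomass heterosis, in which hybrid plants outgrow their parents. There were 4 RNA libraries in 2 groups of 2, all from plants on Murashige and Skoog plates, a medium that contains phosphate, with 1% sucrose. The names conflict between labels: titles and strain give Ak-1, the genotype label gives Aa-0 (Col-0xAa-0 for the hybrid) and the design text gives Ak-0, so Ak-1 is used here. Col-0, the reference accession and other parent of the cross, was not analysed here, so no value is set against a mid-parent. No label says whether replicates were separate plants or pools, so p-values measure the spread between these libraries only, which may be technical.

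Plants sense phosphate through SPX domains, which bind inositol pyrophosphates when phosphate is plentiful. An SPX protein in that state holds PHR1, a transcription factor of the MYB type, away from its DNA motif, and when phosphate runs low PHR1 is released and switches on genes for uptake, scavenging and lipid replacement. SPX1 and SPX3 are themselves targets of PHR1 and are widely used as readouts of low phosphate, together with SQD1 and SQD2, whose sulfolipid stands in for phospholipids in plastid membranes.

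SPX1 was the 1 of these genes that was called lower in the hybrid, at 0.360 times its Ak-1 level, and none was called higher. PHR1, PHO1, SQD1 and SQD2 had differences within 0.14 on the log2 scale, and SPX2, SPX4, PHO1;H1 and PHO2 were also not called. Values are FPKM (fragments scaled by transcript length and by library size) as the authors deposited them, a scale on which levels of different genes can be compared per length. Differences are hybrid minus Ak-1 on log2(FPKM + 1), tested with limma across the 15905 loci whose mean over the libraries reached 1 FPKM. Called genes are those with a Benjamini-Hochberg adjusted p under 0.05. Of the 10 genes 9 passed that minimum, and 1 of the 9 was called, against 4.13% of all tested loci (2.51% lower, 1.62% higher). The median log2 difference was −0.03 over the 9 genes and −0.06 over all tested loci.

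The libraries bear on every value below. Pearson's r of log2(FPKM + 1) across tested genes, which are not independent replicates, was 0.990 for the Ak-1 pair and 0.968 for the hybrid pair. The hybrid pair was thus less alike, with 74 loci over 4-fold apart where the Ak-1 pair had 0, and for several genes the difference is also given without each hybrid library. Low-value steps gave relative depths of 1.13 to 1.35 against 1 for Ak-1 replicate 1, and the total depth is unknown. The 18S ribosomal RNA locus AT3G41768 had 10547 and 7145 FPKM in Ak-1 against 1670 and 4446 in the hybrid, mitochondrial loci summed to 1177 and 1084 against 581 and 774, and the part of either in any result was not tested. The leaf label was met by all 9 leaf mesophyll markers, at 722 to 13649 FPKM. The 9 root markers summed to at most 0.37 FPKM per library, the 4 shoot apex markers to at most 0.15 with CLV3 and WUS at 0, and the 8 vascular markers to 261 to 306, and none of the 17 leaf and vascular markers, those that could be tested, was called. The vascular markers XCP1, XCP2, IRX1, IRX3 and IRX5 lay wholly lower in the hybrid, and SUC2 and APL wholly higher. Of the leaf markers LHCB2.1, CA1, RCA, GAPA, PRK and SBPASE lay wholly higher. The rest of the 17 overlapped. Of all tested loci 53.1% did not overlap, 32.6% wholly lower in the hybrid and 20.5% wholly higher. In whole leaves, fewer cells of a type and less RNA per cell cannot be told apart.

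**Figure D1:**
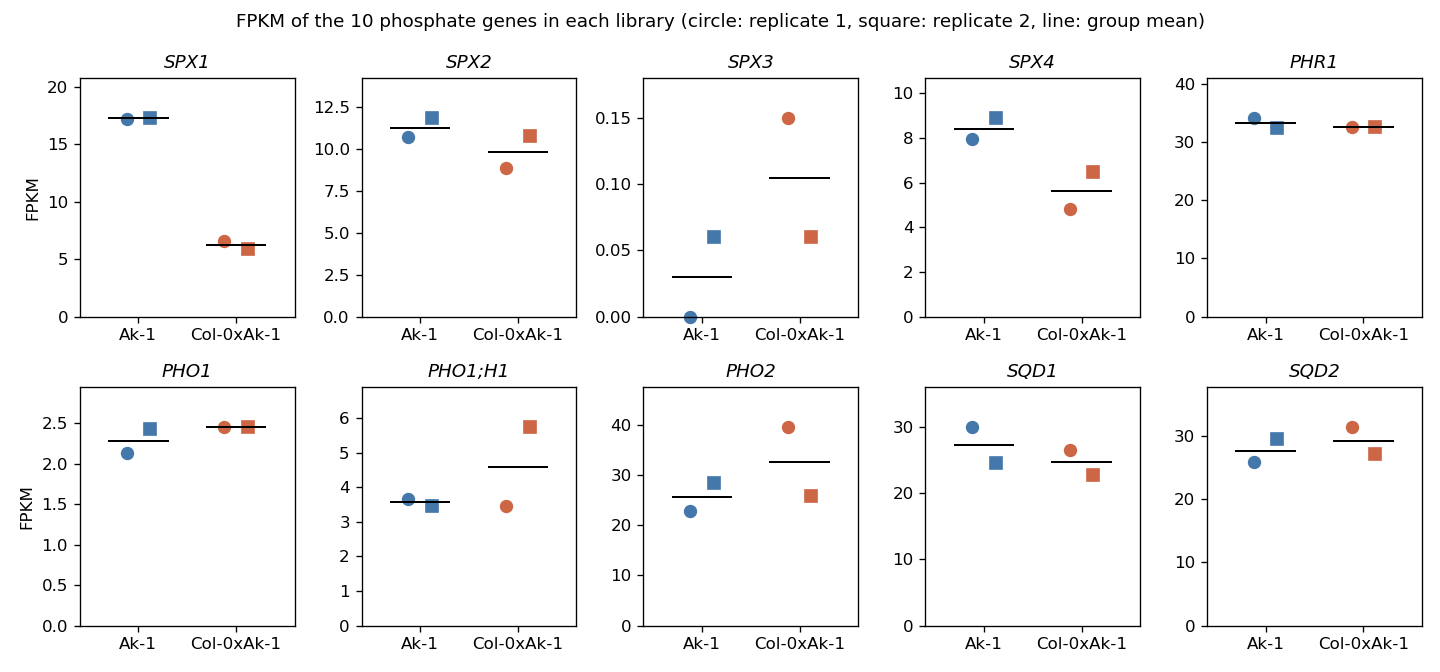
FPKM of each of the 10 genes (vertical axes, each starting at 0 with its own range) in the 2 libraries of Ak-1 (blue) and of Col-0xAk-1 (orange), with circles for replicate 1, squares for replicate 2 and lines for the group means. SPX1 sits at 17.23 and 17.29 FPKM in Ak-1 and at 6.54 and 5.87 in the hybrid, while PHR1 stays between 32.4 and 34.11 in all 4 libraries.

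The SPX proteins are the inhibitors of the pathway. SPX1, on chromosome 5, had 17.23 and 17.29 FPKM in Ak-1 against 6.54 and 5.87 in the hybrid. The groups were far apart relative to the libraries within them, with means of 17.3 ± 0.0424 and 6.21 ± 0.474 FPKM (SD, n = 2 per group). The log2 difference was −1.34 (SE 0.13, 95% interval −1.68 to −1.003, limma adjusted p = 0.0121), the 179th smallest p of the 15905. The call rests on both Ak-1 libraries: without replicate 1 the limma adjusted p was 0.157 and without replicate 2 it was 0.189, at log2 differences of −1.35 and −1.34, where only the hybrid pair is left to measure the spread. All tested loci then gave only 4 higher and 1 lower call without replicate 1 and 3 higher and 1 lower without replicate 2. Leaving out a hybrid library kept the call, with a difference of −1.41 without replicate 1 and −1.28 without replicate 2. The gene's own spread then comes from the Ak-1 pair alone, which for SPX1 differed by very little. The SE was still 0.13 in both runs, as in the full fit, because limma draws each gene's spread toward that of all tested loci.

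SPX2, the closest partner of SPX1 in holding PHR1, had 10.71 and 11.84 FPKM in Ak-1 against 8.85 and 10.78 in the hybrid. These groups overlapped, and the difference was −0.19 (95% interval −0.58 to 0.21, limma adjusted p = 0.572). SPX4, which also binds PHR1, had 7.94 and 8.89 FPKM in Ak-1 against 4.8 and 6.47 in the hybrid. Both hybrid values of SPX4 lay below both Ak-1 values, at a log2 difference of −0.51 (95% interval −0.97 to −0.06, unadjusted p = 0.0324), but it was not called (limma adjusted p = 0.201), and it was −0.33 without hybrid replicate 1 and −0.70 without hybrid replicate 2. Of the 9 tested genes 2 lay wholly lower in the hybrid (SPX1 and SPX4), 1 wholly higher (PHO1) and 6 overlapped, and over all tested loci 53.1% did not overlap, 32.6% lower and 20.5% higher. SPX3, the member of the family that responds most sharply to phosphate shortage, was at the bottom of the scale, with 0 and 0.06 FPKM in Ak-1 against 0.15 and 0.06 in the hybrid, and was not tested. The difference between SPX1 and the other SPX genes was not itself tested.

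The regulator PHR1 was the most abundant of the 10 genes in Ak-1, with 34.11 and 32.4 FPKM, and had 32.57 and 32.65 in the hybrid. Its values overlapped, at a log2 difference of −0.03 (95% interval −0.36 to 0.31), so a difference of −1.34 such as that of SPX1 lies outside the interval. The sign of this difference flipped with scaling, at 0.04 after median-of-ratios scaling and 0.05 after quantile normalization. AT4G28600 on the opposite strand overlaps 2.38% of the PHR1 gene, and AT4G28600 had 9.10 to 10.13 FPKM throughout.

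PHO2, a ubiquitin-conjugating enzyme that marks phosphate transporters and PHO1 for breakdown, had 22.72 and 28.44 FPKM in Ak-1 against 39.53 and 25.8 in the hybrid. The hybrid libraries lay on either side of the higher Ak-1 library, and the difference was 0.32 (95% interval −0.31 to 0.94, limma adjusted p = 0.539). It was 0.02 without hybrid replicate 1 and 0.62 without hybrid replicate 2. PHO2 messenger RNA is cut by miR399, a microRNA made when phosphate is short, at sites in the 5′ UTR. The mature sequences and the sites are shown because they define this arm of the pathway. In the RefSeq annotation of TAIR10.1, 6 mature miR399 sequences share the seed GCCAAAG (bases 2 to 8), among them miR399a and miR399f, printed with the seed in capitals. The 5 sites are stretches of the PHO2 transcript on the minus strand of chromosome 2, between 14281770 and 14282126, in which at most 4 of 21 bases do not pair with a miR399. Capitals mark bases that pair with the best matching miR399, miR399f for the site at 14281827 and miR399a for the others, and each site pairs at 19 of 21 bases and over the whole seed.
ath-miR399a: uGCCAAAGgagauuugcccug
ath-miR399f: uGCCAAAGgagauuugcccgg
PHO2 site, chr2:14282106-14282126: tAGGGCAAATCTtCTTTGGCA
PHO2 site, chr2:14281973-14281993: tAGGGCAtATCTCCTTTGGCA
PHO2 site, chr2:14281884-14281904: ttGGGCAAATCTCCTTTGGCA
PHO2 site, chr2:14281827-14281847: tCGaGCAAATCTCCTTTGGCA
PHO2 site, chr2:14281770-14281790: tAGaGCAAATCTCCTTTGGCA

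All 6 miR399 precursor genes and MIR827A, a further precursor induced by low phosphate, were listed at 0 in all 4 libraries. IPS1, a non-coding RNA that imitates the PHO2 sites and so binds miR399 away, was listed at 0 in either Ak-1 library, with 0.17 and 0 FPKM in the hybrid. Its relative AT4 had 1.59 and 0.39 FPKM in Ak-1 against 0.92 and 1.05 in the hybrid. None of these 9 non-coding genes reached the minimum for the test. An exact 0 can be a failed estimate, so no level of the 7 precursors is drawn from these values.

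The exporters PHO1 and PHO1;H1 pass phosphate out of cells of the vasculature, so that it can be loaded into the xylem. PHO1 had 2.13 and 2.43 FPKM in Ak-1 and 2.45 in each hybrid library, a difference of 0.07 (95% interval −0.32 to 0.47). PHO1;H1, the closest PHO1 homologue in function, had 3.67 and 3.45 FPKM in Ak-1 against 3.46 and 5.74 in the hybrid. Hybrid replicate 1 was thus at the Ak-1 level and replicate 2 above it, and the difference of 0.27 (95% interval −0.32 to 0.85, limma adjusted p = 0.588) became 0.56 without hybrid replicate 1 and −0.03 without hybrid replicate 2.

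The sulfolipid genes were among the higher of the 10. SQD1, whose enzyme makes the sulfur-bearing sugar of the lipid, had 29.95 and 24.59 FPKM in Ak-1 against 26.55 and 22.68 in the hybrid (log2 difference −0.14, 95% interval −0.57 to 0.29). SQD2, whose enzyme joins that sugar to the lipid, had 25.85 and 29.58 FPKM in Ak-1 against 31.45 and 27.19 in the hybrid (log2 difference 0.08, 95% interval −0.32 to 0.47). Both genes overlapped between groups, and the SQD2 difference became −0.02 without Ak-1 replicate 1 or hybrid replicate 1.

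In order of Ak-1 level per length, the genes ran from PHR1 at 33.3 ± 1.21 FPKM through SQD2 at 27.7 ± 2.64, SQD1 at 27.3 ± 3.79, PHO2 at 25.6 ± 4.04, SPX1 at 17.3 ± 0.0424, SPX2 at 11.3 ± 0.799, SPX4 at 8.42 ± 0.672, PHO1;H1 at 3.56 ± 0.156 and PHO1 at 2.28 ± 0.212 to SPX3 at 0.0300 ± 0.0424 (SD, n = 2). SQD2, SQD1 and PHO2 did not differ beyond their spread. In the hybrid SPX1, at 6.21 ± 0.474 FPKM, lay below SPX2 at 9.82 ± 1.36 and beside SPX4 at 5.64 ± 1.18, from which it did not differ beyond the spread. Between the hybrid libraries PHO1;H1 differed 1.66-fold and PHO2 1.53-fold, 2 of the 9 tested genes over 1.5-fold, where 21.7% of all tested loci were. Between the Ak-1 libraries 0 of 9 were, beside 8.61% of all tested loci.

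**Figure D2:**
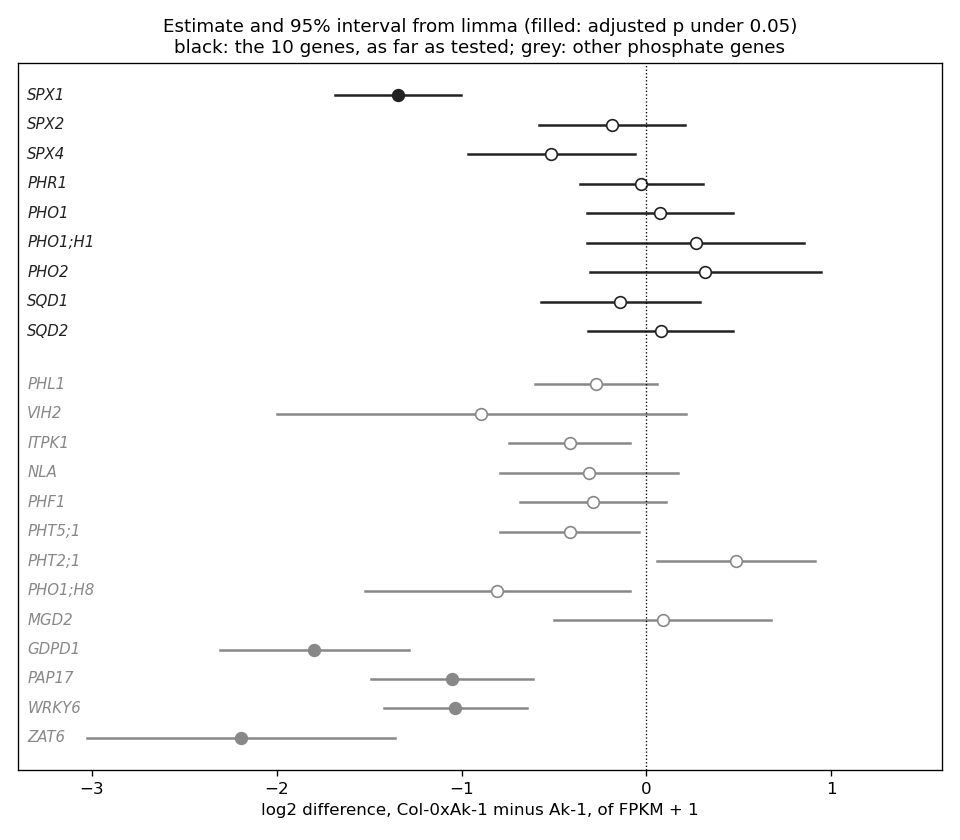
Log2 difference of FPKM + 1, Col-0xAk-1 minus Ak-1 (horizontal axis), with its 95% interval from limma. The 9 tested genes are black and the other tested phosphate genes named by rule are grey, filled where the adjusted p was under 0.05. PS2, WRKY45 and PAP12, named in the text outside that rule, are not drawn. SPX1 at −1.34, GDPD1 at −1.80, PAP17 at −1.05, WRKY6 at −1.03 and ZAT6 at −2.19 are filled, and the intervals of PHR1, PHO1, SQD1 and SQD2 include 0.

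Beyond the 10 genes, 85 further genes of phosphate biology in 8 lists gave the setting. Of them 44 were tested, and 4 were called lower, 0 higher and 40 not called, a share of lower calls to be read against the 2.51% of all tested loci. The lists, like the 10 genes, were chosen with earlier results of these data known, so these shares are not an independent comparison. By unadjusted p under 0.05 there were 9 lower and 3 higher of the 44, where 12.6% of all tested loci were lower and 7.61% higher by that rule, 20.2% in all. The median log2 difference of the 44 was −0.16, with 32 below 0 and 12 above, and 57.8% of all tested loci also lay below 0. None of these 4 calls was kept without either Ak-1 library, and with no filter on low values, where 24073 loci were tested, none of the 4 was called, at unchanged log2 differences.

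Among 9 tested genes of lipid remodelling, 1 was called lower. GDPD1, also annotated as senescence-related gene 3, encodes a glycerophosphodiester phosphodiesterase that recovers phosphate from the remains of phospholipids, and had 10.46 and 7.87 FPKM in Ak-1 against 1.61 and 2.23 in the hybrid. Its hybrid mean was 0.209 times that of Ak-1 (a log2 difference of −1.80, SE 0.20, limma adjusted p = 0.0160, and an adjusted p of 0.0555 with no filter on low values). AT3G02030 lies over 36.9% of the GDPD1 gene on the opposite strand, which libraries without strand cannot separate. It was listed at 0.72 to 1.07 FPKM in the 4 libraries, and its part in the GDPD1 values was not tested. MGD2, which makes galactolipid when phosphate is short, had 0.99 and 1.61 FPKM in Ak-1 against 1.72 and 1.16 in the hybrid, and its sister MGD3 had 0.03 to 0.11 in all libraries. PLDZ2, a phospholipase D of the same response, had 0.47 and 0.58 FPKM in Ak-1 against 0.71 and 0.76 in the hybrid and was under the minimum for the test.

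Of 5 tested scavenging genes 1 was called lower. PAP17, an acid phosphatase that low phosphate induces, had 15.96 and 16.37 FPKM in Ak-1 against 8.41 and 6.27 in the hybrid (log2 difference −1.05, SE 0.17, limma adjusted p = 0.0407). The neighbour AT3G17800 lies over 6.59% of the PAP17 gene and had 169 and 171 FPKM in Ak-1 against 210 and 282 in the hybrid, and its part in the PAP17 values was not tested. The PAP17 call was lost in more alternatives than that of GDPD1, with limma adjusted p of 0.0632 after median-of-ratios scaling, 0.0621 after quantile normalization, 0.0631 with the replicate number as a block, 0.0524 where means had to reach 5 FPKM, 0.0882 with no filter and 0.0680 without hybrid replicate 2.

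Of 7 other tested regulators 2 were called lower and 0 higher. WRKY6, a transcription factor known to repress PHO1 and also active in senescence, had 8.42 and 9.57 FPKM in Ak-1 against 3.57 and 4.2 in the hybrid (log2 difference −1.03, SE 0.15, limma adjusted p = 0.0320). PHO1 was not called beside it, as given above, and WRKY42, a further repressor of PHO1, had 0.21 to 0.39 FPKM. ZAT6, a zinc finger factor of phosphate and stress responses, had 22.7 and 36.91 FPKM in Ak-1 against 4.15 and 7.34 in the hybrid (log2 difference −2.19, SE 0.33, limma adjusted p = 0.0333). Without hybrid replicate 1 the limma adjusted p was 0.0526 for WRKY6 and 0.0595 for ZAT6, and without hybrid replicate 2 it was 0.0588 and 0.0513.

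None of 9 tested signalling genes was called by limma, and 1 had an unadjusted p under 0.05, beside 20.2% of all tested loci. That gene was ITPK1, for an inositol phosphate kinase on the way to the molecules that SPX domains bind, with 24.76 and 23.6 FPKM in Ak-1 against 17.87 and 17.88 in the hybrid (log2 difference −0.42, limma adjusted p = 0.171). VIH2, a homologue of yeast Vip1 that makes inositol pyrophosphate, had 13.23 and 12.9 FPKM in Ak-1 against 11.04 and 3.76 in the hybrid, so that replicate 2 alone was far below Ak-1. Its log2 difference was −0.89 (limma adjusted p = 0.337) and −1.56 without hybrid replicate 1 (limma adjusted p = 0.0217), but −0.22 without hybrid replicate 2 (limma adjusted p = 0.422), with the lone library assumed to vary like the Ak-1 pair. VIH1 had 0.59 to 0.86 FPKM. PHL1, the nearest relative of PHR1, had 11.69 and 11.26 FPKM in Ak-1 against 9.61 and 9.07 in the hybrid (log2 difference −0.27, limma adjusted p = 0.330). NLA, a ubiquitin ligase for phosphate transporters, had 4.13 and 3.31 FPKM in Ak-1 against 2.4 and 3.24 in the hybrid (log2 difference −0.31).

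Transport genes gave no call by limma in any of 3 lists. Their counts at an unadjusted p under 0.05 stand beside 20.2% of all tested loci. Of 13 genes of uptake and vacuolar storage 3 were tested, with 1 at an unadjusted p under 0.05, and 4 were listed at 0 in every library. The root uptake transporter PHT1;1 had at most 0.07 FPKM and PHT1;4 had 0.26 and 0.17 FPKM in Ak-1 against 0.77 and 0.5 in the hybrid. PHF1, which such transporters need in order to reach the cell membrane, had 4.81 and 4.2 FPKM in Ak-1 against 3.78 and 3.23 in the hybrid (log2 difference −0.29). PHT5;1, which stores phosphate in the vacuole, had 20.95 and 22.13 FPKM in Ak-1 against 17.31 and 14.59 in the hybrid (log2 difference −0.42, limma adjusted p = 0.213). Among 8 tested organelle carriers, 2 of them at an unadjusted p under 0.05, the plastid transporter PHT2;1 had 239 and 214 FPKM in Ak-1 against 289 and 347 in the hybrid (log2 difference 0.49, limma adjusted p = 0.202). Among 3 tested PHO1 homologues, 1 of them at an unadjusted p under 0.05, PHO1;H8 had 4.87 and 4.98 FPKM in Ak-1 against 3.45 and 1.58 in the hybrid (log2 difference −0.81, limma adjusted p = 0.205). It was −1.20 without hybrid replicate 1 (limma adjusted p = 0.0301) and −0.41 without hybrid replicate 2 (limma adjusted p = 0.230), and in both the remaining hybrid library was assumed to vary like the Ak-1 pair.

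**Figure D3:**
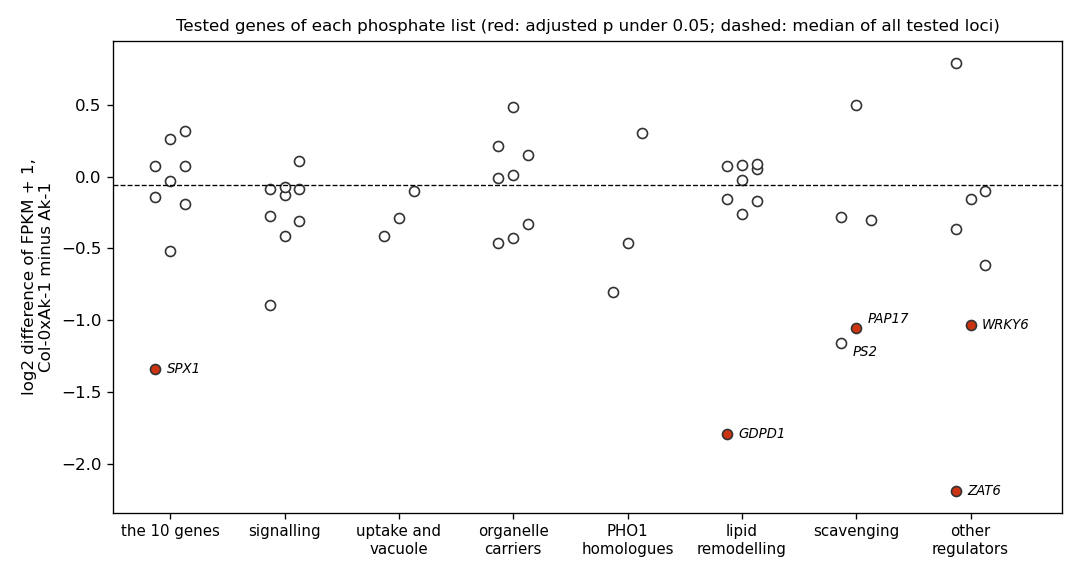
Log2 difference of FPKM + 1, Col-0xAk-1 minus Ak-1 (vertical axis), of every tested gene among the 10 genes and in the 7 other lists that had a tested gene (horizontal axis), red where the adjusted p was under 0.05, with the median of all tested loci at −0.06 as a dashed line. The red points are SPX1, GDPD1, PAP17, WRKY6 and ZAT6, all below the line, and PS2 at −1.16 was not called.

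Among the 44 tested genes of the other lists, those with values over the 4 libraries nearest to SPX1 were PAP17, WRKY6 and GDPD1. They were the 3 nearest, at Euclidean distances of 0.34, 0.40 and 0.61 between log2 values centred on each gene's mean over the 4 libraries. With 4 libraries in 2 groups, this distance largely follows the size of the group difference, so it adds little to the calls. Genes outside the lists were not searched, and shared regulation was not tested. PS2, a pyrophosphatase gene induced by low phosphate and named here after its values were seen, had 1.88 and 3.73 FPKM in Ak-1 against 1.24 and 0.22 in the hybrid (log2 difference −1.16, SE 0.39, limma adjusted p = 0.192). WRKY45 and PAP12, also not called and likewise named outside the rule for named genes, went the other way. WRKY45 had 2.01 and 1.73 FPKM in Ak-1 against 2.99 and 5.21 in the hybrid (log2 difference 0.80, limma adjusted p = 0.172). PAP12 had 5.97 and 7.44 FPKM in Ak-1 against 9.19 and 10.53 in the hybrid (log2 difference 0.50, limma adjusted p = 0.184).

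PHR1 binds the motif P1BS, GNATATNC, which reads the same on both strands, and the 1000 bases before each annotated gene start were searched for it in the Col-0 reference TAIR10.1. P1BS was present before 5 of the 10 genes (SPX1, SPX3, SPX4, PHO2 and SQD2) and before 20.3% of 27443 protein-coding genes. It was also present before 39 of the 85 other phosphate genes, called or not. These 85 include 9 non-coding genes, all 9 with the motif, whereas the 20.3% covers protein-coding genes only. In the window from 250 bases before to 50 bases after the start P1BS was found for SPX3 and for 6.25% of the same protein-coding genes. It was also found there for SPX1 and SQD1, reaching into the 50 bases after the start. Among the 5 genes called lower, SPX1, GDPD1 and ZAT6 held it within the 1000 bases, while PAP17 and WRKY6 did not, to be read beside those 39 of 85. A match is a description of the sequence, not a bound site. The stretches below are shown for the called gene SPX1, for SPX4, PHO2 and SQD2 as genes with the motif and no call, for SPX3 with its very low level, and for GDPD1, the called gene with the most matches. Each is written 5′ to 3′ on the strand of the gene with P1BS in capitals.
SPX1, chr5:6801517-6801584, plus strand: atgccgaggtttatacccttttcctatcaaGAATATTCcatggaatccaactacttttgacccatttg
SPX4, chr5:4980006-4980073, plus strand: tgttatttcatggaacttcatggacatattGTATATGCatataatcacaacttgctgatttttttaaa
PHO2, chr2:14283602-14283669, minus strand: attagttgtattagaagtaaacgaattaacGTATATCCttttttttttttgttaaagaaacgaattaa
SQD2, chr5:90420-90487, minus strand: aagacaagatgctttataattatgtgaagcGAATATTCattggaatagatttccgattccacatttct
SPX3, chr2:18606160-18606409, plus strand: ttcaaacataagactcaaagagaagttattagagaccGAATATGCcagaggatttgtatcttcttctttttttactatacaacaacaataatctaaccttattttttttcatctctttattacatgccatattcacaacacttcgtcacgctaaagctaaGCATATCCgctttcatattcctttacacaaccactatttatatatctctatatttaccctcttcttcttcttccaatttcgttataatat
GDPD1, chr3:350011-350260, minus strand: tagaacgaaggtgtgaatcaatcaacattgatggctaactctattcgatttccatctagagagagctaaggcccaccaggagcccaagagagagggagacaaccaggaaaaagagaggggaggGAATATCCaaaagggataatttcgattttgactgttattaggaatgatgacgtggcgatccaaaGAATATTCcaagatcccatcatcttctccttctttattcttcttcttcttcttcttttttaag

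The motif lies 735 bases before the start of SPX1 and 340 before that of SQD2, with the same letters, GAATATTC, in both, although SPX1 was called and SQD2 was not. GDPD1 carried 4 matches, at 324, 312, 127 and 63 bases before its start, and SPX3 carried 2, at 213 and 90. PLDZ2, under the minimum for the test, also carried 4. The Ak-1 sequence of these windows was not used here.

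**Figure D4:**
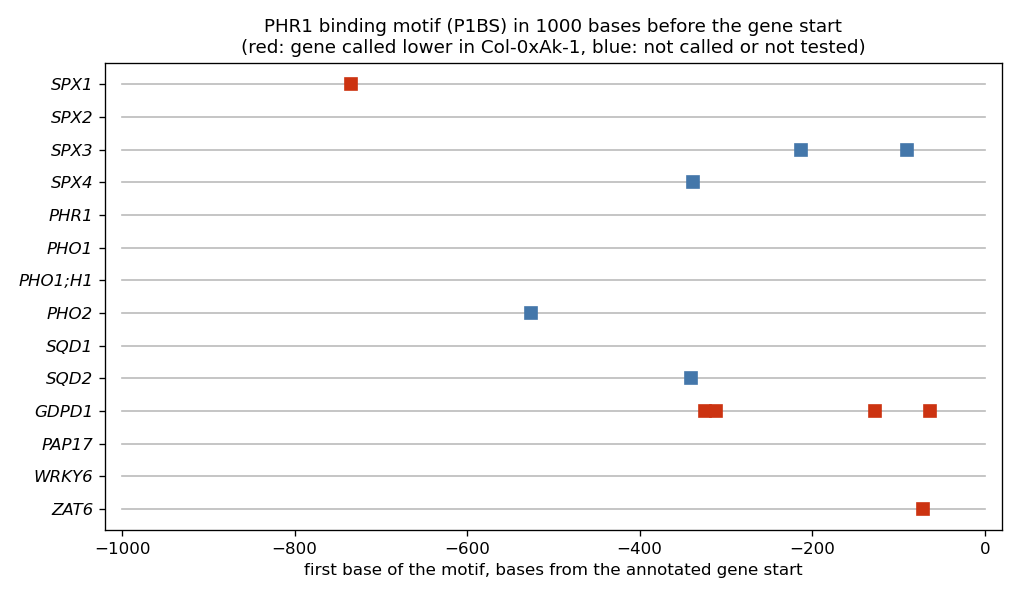
Positions of P1BS (squares) in the 1000 bases before the annotated gene start (horizontal axis, in bases) of the 10 genes and of GDPD1, PAP17, WRKY6 and ZAT6, red where the gene was called lower in Col-0xAk-1 and blue otherwise. Matches stand before SPX1, SPX3, SPX4, PHO2 and SQD2, with 4 before GDPD1 and none before PAP17 or WRKY6. Matches that reach past the start, held by SPX1 and SQD1, are not drawn.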

How the data were processed

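The deposited values are FPKM computed by the authors, 1 for each of 34133 loci and library, with 2 decimals. Tools named in the submitters' processing notes are Cufflinks 2.0.2, TopHat2 2.0.8b, a TopHat without version, and edgeR 3.12.0, with build TAIR10. The role of each tool and the handling of multiply mapping reads are not given in the sources used. Per the labels' protocols, total RNA went into a TruSeq RNA V2 preparation, a kit that leaves strand unmarked. An exact 0 can be a failed estimate, so genes near 0 are given per library.

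FPKM are not counts, so limma 3.58.1 in R 4.3.3 was fitted to log2(FPKM + 1) of the 15905 loci whose mean reached 1 FPKM, with a mean-variance trend, no covariate, 2 residual and 3.18 prior degrees of freedom, two-sided, with Benjamini-Hochberg adjustment over all of them. This scale understates changes of low genes. An exact permutation test of 2 against 2 cannot go below 0.333 and was not used. The labels give no batch.

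The genes and lists were chosen with earlier results of these data known. Genes named by rule were the 10, up to 3 called genes per list (or the 1 with the smallest adjusted p), 15 pathway genes fixed by name (PAP17 and WRKY6 among them, which the rule on called genes names too), and the 3 nearest to SPX1. PS2, WRKY45 and PAP12 were named outside this rule. All 95 phosphate loci matched the RefSeq annotation of TAIR10.1, from which names, overlaps and sequences come; its coordinates belong to TAIR10.1 and were not joined to coordinates of another build. Alternatives covered filter, pseudocount, scaling, trend, block and leaving out each library.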

Additional observations from a re-analysis of the deposited data

How the results depend on the processing

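SPX1 kept its direction in all 13 alternatives and its call in 11, with log2 differences from −1.41 to −1.28 over the runs without 1 library. Without an Ak-1 library its limma adjusted p was 0.157 and 0.189, and 0 of the 10 genes was called lower, against 1 without either hybrid library; none was called higher in any alternative. Over all tested loci, requiring a mean of at least 5 FPKM gave 92 higher and 206 lower calls, and no filter on low values gave 173 lower. Leaving out 1 library gave 3 to 560 higher and 1 to 751 lower calls. Of the other phosphate genes, 0 were called lower with no filter, and over the runs without 1 library 0 to 4 lower and 0 to 1 higher. The sign turned for PHR1, to 0.036 with median-of-ratios scaling and 0.051 with quantile normalization, and without 1 library it ran from −0.063 to 0.0090. Likewise PHO1;H1 ran from −0.032 to 0.56, SQD2 from −0.024 to 0.18 and MGD2 from −0.11 to 0.28. The causes were not tested. Replicate numbers occur in both groups, and the replicate deviations correlated at −0.138 over tested loci. That gave no sign that replicate numbers pair the libraries, but this correlation alone cannot settle it. With the replicate block 200 loci were called higher and 365 lower, and the log2 difference of SPX1 stayed −1.34 (limma adjusted p = 0.0281). With the pairing crossed, chosen after seeing the data, 262 were called higher and 439 lower. With 2 libraries a group and unknown depth, small differences of low genes such as SPX3 were not detectable.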
